A study of Mus musculus with 8 samples.

Results

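The genes described here are the ligand, the receptors and the binding proteins of the insulin-like growth factor (IGF) system that the soleus muscle transcribes, together with the RNA-binding protein Igf2bp2. The 10 genes (Igf1, Igf1r, Igf2r, Igfbp2, Igfbp3, Igfbp4, Igfbp5, Igfbp6, Igfbp7 and Igf2bp2) were taken by name from the 22880 genes counted, and all 10 were among the 14001 genes that passed the filter on low counts. The samples are whole soleus muscles, which lie in the calf and are rich in slow fibres, from 4 control mice (Dnm2 +/+) and 4 heterozygous mutant mice (Dnm2 +/K562E), all males of the C57BL/6 background at 2 months of age. Dnm2 encodes dynamin-2, a GTPase that cuts membrane vesicles free during endocytosis. The mutant mice carry, in every cell, 1 allele (K562E) in which a lysine of dynamin-2 is replaced by glutamate, and the controls carry none. Because the allele is present throughout the body, the data cannot assign a difference to the muscle fibre, to another cell of the muscle or to another organ.

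IGF1 is a secreted growth factor that drives growth and maintenance of muscle. It is made in the liver under growth hormone and also locally, by muscle fibres, fibroblasts and macrophages, and it signals through a receptor tyrosine kinase, the product of Igf1r, into the AKT and mTOR pathway. The product of Igf2r, also known as the cation-independent mannose 6-phosphate receptor, takes IGF2 to the lysosome and sorts lysosomal enzymes. IGF binding proteins hold IGFs in the circulation and in the matrix, and each can restrain or prolong their action. Igf2bp2 belongs to a different family, which binds messenger RNAs, that of Igf2 among them, and not the growth factors themselves.

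The promoters of 4 of the 5 genes past both thresholds below, Igf2r, Igfbp2, Igfbp3 and Igf2bp2, and that of Igfbp5, the neighbour of Igfbp2 on chromosome 1, are shown to let their start regions be compared. All 10 genes were matched to RefSeq starts on GRCm38.p6, with 11 windows of 250 bases before the start because Igfbp2 has a pair of starts. For Igf1r, Igf2r, the upstream Igfbp2 start, Igfbp6 and Igfbp7, the first bases after the start were not found in the gene's annotated transcripts. Each is written from 5′ to 3′ on the strand of its gene, and capitals mark the GC box GGGCGG or its reverse complement. The windows are those of Igf2r (chr17:12769707-12769956, minus strand), the upstream start of Igfbp2 (chr1:72824230-72824479, plus strand), Igfbp3 (chr11:7213924-7214173, minus strand), Igfbp5 (chr1:72874885-72875115, minus strand, ended at the annotated exon) and Igf2bp2 (chr16:22163300-22163549, minus strand).
Igf2r: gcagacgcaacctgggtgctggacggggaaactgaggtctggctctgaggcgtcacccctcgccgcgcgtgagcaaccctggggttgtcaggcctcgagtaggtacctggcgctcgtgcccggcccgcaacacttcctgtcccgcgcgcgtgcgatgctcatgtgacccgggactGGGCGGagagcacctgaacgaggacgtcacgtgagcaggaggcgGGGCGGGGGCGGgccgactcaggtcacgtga
Igfbp2: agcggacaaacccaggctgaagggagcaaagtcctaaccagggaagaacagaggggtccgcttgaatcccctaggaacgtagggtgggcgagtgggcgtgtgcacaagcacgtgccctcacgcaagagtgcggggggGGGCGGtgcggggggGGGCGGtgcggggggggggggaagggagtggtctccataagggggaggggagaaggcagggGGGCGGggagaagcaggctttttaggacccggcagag
Igfbp3: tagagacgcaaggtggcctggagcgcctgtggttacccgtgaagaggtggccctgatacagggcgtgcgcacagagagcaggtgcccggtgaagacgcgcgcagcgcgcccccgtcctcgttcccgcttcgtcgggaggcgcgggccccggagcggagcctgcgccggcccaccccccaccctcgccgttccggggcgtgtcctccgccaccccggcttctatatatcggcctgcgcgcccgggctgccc
Igfbp5: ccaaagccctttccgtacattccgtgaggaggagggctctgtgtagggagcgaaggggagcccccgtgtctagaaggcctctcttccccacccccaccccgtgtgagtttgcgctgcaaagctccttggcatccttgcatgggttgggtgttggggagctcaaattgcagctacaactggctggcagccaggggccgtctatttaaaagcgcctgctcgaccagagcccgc
Igf2bp2: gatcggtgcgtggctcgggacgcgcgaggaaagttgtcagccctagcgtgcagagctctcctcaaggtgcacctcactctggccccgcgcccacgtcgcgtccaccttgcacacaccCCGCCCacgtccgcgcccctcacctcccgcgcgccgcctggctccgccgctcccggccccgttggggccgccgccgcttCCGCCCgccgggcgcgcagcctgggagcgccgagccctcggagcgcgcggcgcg

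The window of Igf2r held 3 GC boxes, that of Igfbp2 held 3, that of Igf2bp2 held 2, and those of Igfbp3 and Igfbp5 held none. Among the windows not shown, that of Igfbp7 held 4, that of Igf1r held 2 and the others held none. Of all 32851 windows in the table, 32.7% held this motif on either strand. The windows of Igfbp3 and Igf2bp2 held 32 and 40 CpG pairs, against a median of 6 over all windows, and those of Igf1r (42), Igf2r (27), Igfbp7 (26) and Igfbp4 (22) were dense in CpG pairs too, whereas Igf1 had 5 and Igfbp6 had 7. The other motifs searched on both strands were TATAAA (in 12.4% of all windows), CCAAT (33.8%), the FOXO motif GTAAACA (3.17%) and the E-box CANNTG (66.2%). TATAAA was found in the windows of Igfbp4 and Igfbp6 only, and GTAAACA in none of the 11. The motifs found overlapped no other, and the search describes letters in these windows and says nothing about bound factors. The window of Igf1, the fifth, lies within an annotated exon and is not shown.

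The authors deposited the number of reads per gene and mouse, with 33407430 to 48832814 counts per library. Levels are given as normalized CPM, which are counts scaled to the depth of the library with TMM factors, and a log2 fold change is Dnm2 +/K562E minus control. A gene is said to have risen or fallen where the adjusted p of edgeR's quasi-likelihood test was under 0.05, and to have been called where its log2 fold change was also at least 0.58 in size. Dnm2 itself was at 68.8, 68.5, 59.2 and 68.7 normalized CPM in controls 1 to 4 and at 74.2, 76.1, 73.2 and 70.3 in Dnm2 +/K562E mice 1 to 4, with a log2 fold change of 0.15 (SE 0.07, edgeR adjusted p = 0.0909). These counts add both alleles and do not check the genotype. That the tissue is skeletal muscle was checked on 10 myofibre genes, Acta1 and Myh2 among them, which were all above 0. They summed to 70325 to 77226 normalized CPM in controls and 45626 to 51587 in mutant mice. This check does not tell soleus from other skeletal muscles. The mice are separate animals, so the p-values measure the spread between animals. In RNA from whole muscle, fewer cells of a type and less RNA per cell cannot be told apart.

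Of the 10 IGF genes, 7 rose in Dnm2 +/K562E soleus, 2 fell and 1 (Igfbp5) did not pass the test. Of all tested genes, 22.2% rose and 21.7% fell. The ligand gene Igf1, both receptor genes, 3 binding protein genes (Igfbp4, Igfbp6 and Igfbp7) and Igf2bp2 were the genes that rose, while Igfbp2 and Igfbp3 fell. With the fold threshold added, Igf1, Igf2r and Igf2bp2 were called higher, against 12.9% of all tested genes, and Igfbp2 and Igfbp3 were called lower, against 7.85%. For 6 of the 10, no mutant mouse overlapped with any control in normalized CPM, with Igf2r, Igfbp6, Igfbp7 and Igf2bp2 above and Igfbp2 and Igfbp3 below. Such a separation was seen for 41.2% of all tested genes. The median log2 fold change of the 10 genes was 0.46, with a range from -1.48 to 1.33, beside a median of 0.01 over all tested genes. Scaling by library size alone, which shifts the median of all genes to 0.22 and splits the calls over all genes into 2865 higher and 564 lower instead of 1806 and 1099, left 7 higher and 2 lower at the adjusted p and gave 6 called higher and 2 called lower.

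**Figure D1:**
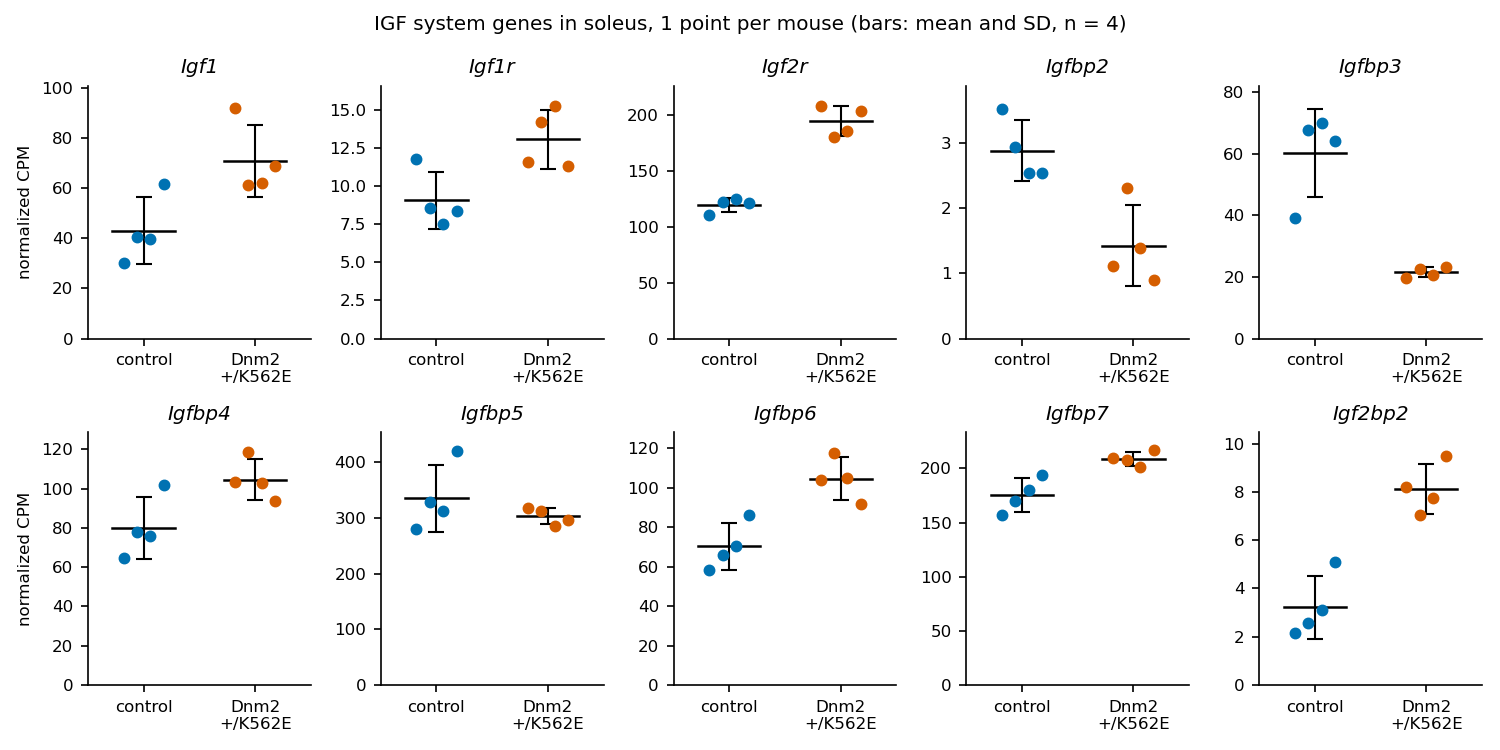
Levels of the 10 IGF genes in normalized CPM (vertical axis, each panel with its own scale from 0), with 1 point per mouse in the order 1 to 4, blue for control and orange for Dnm2 +/K562E, and lines for the mean and SD of 4 mice. Igf2r, Igfbp6, Igfbp7 and Igf2bp2 separate upwards and Igfbp2 and Igfbp3 downwards, whereas the other 4 genes overlap.

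Igf1 (ENSMUSG00000020053, plus strand of chromosome 10, positions 87858265 to 87937042 of GRCm38) was at 30.0, 40.5, 39.8 and 61.7 normalized CPM in controls 1 to 4 and at 92.1, 61.3, 62.0 and 69.1 in Dnm2 +/K562E mice 1 to 4. Control 4 stood just above the lowest mutant mouse, so the genotypes overlapped, and mutant mouse 1 was the highest of all 8. The mean went from 43.0 ± 13.3 to 71.1 ± 14.4 (SD, n = 4), and Igf1 rose with a log2 fold change of 0.73 (SE 0.20, 95% interval 0.29 to 1.16, edgeR adjusted p = 0.0126). Its size depended on single animals, at 0.94 without control 4 and 0.576 without mutant mouse 1, which is under the fold threshold. The 8 annotated transcripts of Igf1 were counted together, so the data do not separate its splice forms.

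The level of Igf1 can be set beside those of cells known to transcribe it. All 10 macrophage markers rose, Csf1r and C1qc among them, and their summed level was 130.3 to 248 normalized CPM in controls and 295 to 487 in mutant mice. Control 4, the control with the most Igf1, had the highest macrophage sum of the controls, and mutant mouse 1, with the most Igf1 of all animals, had the highest of all 8. The other mutant mice did not follow this order, since mouse 4 had the second most Igf1 of them with their lowest sum (295) and mouse 2 the least Igf1 with a sum of 383. Of 10 markers of fibroblasts and fibro-adipogenic cells, 9 rose, Dcn and Col3a1 among them, and 1 fell, with sums of 2648 to 4020 and 5632 to 7340. The part of these cells in the Igf1 difference was not tested. Transcripts of the liver, the main source of circulating IGF1, were near 0, with a sum over 5 markers of at most 1.77 normalized CPM. Alb had 12 to 55 counts in controls and 6 to 33 in mutant mice, and did not pass the test (edgeR adjusted p = 0.119). Ahsg, too low to be tested, had no count in any control and 8 to 14 counts in mutant mice.

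Igf1r (ENSMUSG00000005533, plus strand of chromosome 7, 67952827 to 68233668), the signalling receptor, was at 11.8, 8.55, 7.55 and 8.36 normalized CPM in controls and at 11.6, 14.2, 15.2 and 11.3 in Dnm2 +/K562E mice. Control 1 reached the lower mutant mice, and the other 3 controls lay below every mutant mouse. Igf1r rose from 9.06 ± 1.87 to 13.1 ± 1.95 (SD, n = 4), with a log2 fold change of 0.53 (SE 0.15, 95% interval 0.20 to 0.87, edgeR adjusted p = 0.0151), short of the fold threshold. It passed that threshold without control 1, without mutant mouse 1 or without mutant mouse 4, and had its highest adjusted p, 0.0497, among the fits that left out 1 mouse.

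Igf2r (ENSMUSG00000023830, minus strand of chromosome 17, 12682406 to 12769664), whose product removes IGF2 and carries lysosomal enzymes, had the smallest standard error of the genes that rose. It was at 111, 122, 125 and 121 normalized CPM in controls and at 208, 181, 186 and 203 in Dnm2 +/K562E mice. Every mutant mouse stood above every control by more than the range within either genotype. The mean rose from 119.7 ± 6.18 to 194.5 ± 13.4 (SD, n = 4), which gave a log2 difference of 0.70 (SE 0.07, 95% interval 0.55 to 0.85, edgeR adjusted p = 1.54e-05).

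Per kilobase of exon, the scale used here to set different genes side by side, Igf2r was at 12.9 ± 0.664 and Igf1r at 0.540 ± 0.112 normalized CPM per kb in controls. The length of a gene merges the exons of all its annotated transcripts, so levels on this scale depend on the annotation. Their ratio was 24.7 ± 5.49 in controls and 27.4 ± 5.78 in mutant mice (SD, n = 4), with overlapping animals. The ratio of Igf1r to Insr, the insulin receptor gene, was 0.0620 ± 0.0137 in controls and 0.131 ± 0.0194 in mutant mice, and here every mutant mouse was above every control.

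Among the binding proteins, Igfbp3 (ENSMUSG00000020427, minus strand of chromosome 11, 7206086 to 7213923) changed most. Its product is the main carrier of IGFs in blood. It was at 39.2, 67.8, 70.1 and 64.3 normalized CPM in controls and at 19.8, 22.6, 20.8 and 23.2 in Dnm2 +/K562E mice. Control 1 was the lowest control and still lay above all mutant mice, which were close to one another. Igfbp3 fell from 60.4 ± 14.3 to 21.6 ± 1.57 (SD, n = 4), with a log2 fold change of -1.48 (SE 0.16, 95% interval -1.83 to -1.13, edgeR adjusted p = 3.41e-05).

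Endothelial cells are a known source of IGFBP3, and 8 of 10 endothelial markers fell while the other 2 did not pass the test, with sums of 1527 to 1654 normalized CPM in controls and 1022 to 1172 in mutant mice. Among them were Ptprb (log2 fold change -0.75) and Cdh5 (-0.40), and the median of the list was -0.40. Under library size alone, 5 of the 10 endothelial markers fell and the median was -0.19. Within the controls, mouse 1 had the lowest Igfbp3 level with an endothelial sum of 1539, inside the range of the others. The part of endothelial cells in the Igfbp3 difference was not tested. Igfbp1, which lies 3539 bases from Igfbp3 on the opposite strand and is chiefly a liver gene, had a count of 0 in every mouse, which allows a level of up to 0.0894 normalized CPM in a single mouse by counting error alone.

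Igfbp2 (ENSMUSG00000039323, plus strand of chromosome 1, 72824503 to 72852474) encodes a binding protein that also meets integrins at the cell surface. It was sparse, with 86 to 118 counts in controls and 33 to 99 in Dnm2 +/K562E mice. These made 3.52, 2.94, 2.53 and 2.53 normalized CPM in controls and 1.11, 2.30, 1.38 and 0.892 in mutant mice. Mutant mouse 2 came close to the lowest controls, and the genotypes did not overlap on this scale. By library size alone, mutant mouse 2 (99 of 39015663 counts) would stand above control 3 (113 of 48832814) and control 4 (86 of 35412828). Igfbp2 fell from 2.88 ± 0.466 to 1.42 ± 0.619 (SD, n = 4), with a log2 fold change of -1.01 (SE 0.28, 95% interval -1.63 to -0.38, edgeR adjusted p = 0.014). Leaving out mutant mouse 2 gave -1.34.

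Igfbp5 (ENSMUSG00000026185, minus strand of chromosome 1, 72857932 to 72874884), the binding protein known for muscle and bone, is the next gene to Igfbp2, with 5457 bases and no other gene between their 3′ ends. It was at 279.3, 328, 312 and 420.4 normalized CPM in controls and at 317, 312, 286 and 296 in Dnm2 +/K562E mice. Control 4 was the highest and control 1 the lowest of all 8, so that the controls spanned the mutant mice. The log2 fold change of -0.15 (SE 0.11, 95% interval -0.38 to 0.09) did not pass the test (edgeR adjusted p = 0.305).

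Igfbp4 (ENSMUSG00000017493, plus strand of chromosome 11, 99041244 to 99054392) encodes an inhibitor of IGF action whose cleavage frees the bound IGF. It was at 64.5, 77.8, 76.0 and 101.7 normalized CPM in controls and at 103.3, 118.6, 103.0 and 93.5 in Dnm2 +/K562E mice. Control 4 stood above mutant mouse 4, and the other 3 controls lay below every mutant mouse. Igfbp4 rose from 80.02 ± 15.6 to 104.6 ± 10.4 (SD, n = 4), with a log2 fold change of 0.39 (SE 0.12, 95% interval 0.11 to 0.66, edgeR adjusted p = 0.0271). The adjusted p was 0.05 or more in 5 of the 8 fits that left out 1 mouse and reached 0.0787.

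Igfbp6 (ENSMUSG00000023046, plus strand of chromosome 15, 102144362 to 102149511) encodes the binding protein that prefers IGF2 over IGF1. It was at 58.5, 66.0, 70.3 and 86.4 normalized CPM in controls and at 104.1, 117.8, 105.1 and 91.6 in Dnm2 +/K562E mice. No animals overlapped, although control 4 and mutant mouse 4 were close. Igfbp6 rose from 70.3 ± 11.8 to 104.7 ± 10.7 (SD, n = 4), with a log2 fold change of 0.57 (SE 0.12, 95% interval 0.32 to 0.83, edgeR adjusted p = 0.00219). This lay just under the fold threshold, which it passed without control 4 (0.68), without mutant mouse 4 (0.63) and under the filter of at least 10 counts in every mouse.

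Igfbp7 (ENSMUSG00000036256, minus strand of chromosome 5, 77349240 to 77408041) encodes a low-affinity member that is laid down around vessels. It was at 157, 170.1, 180.5 and 194 normalized CPM in controls and at 209.7, 207, 202 and 217 in Dnm2 +/K562E mice. All mutant mice were above all controls, by a small margin. Igfbp7 rose from 175.4 ± 15.6 to 208.9 ± 6.40 (SD, n = 4), with a log2 fold change of 0.25 (SE 0.07, 95% interval 0.10 to 0.40, edgeR adjusted p = 0.0125). Of its exon bases, 85 overlap Polr2b on the other strand, whose reads may be counted for both genes.

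Between the genotypes, the fibroblast sums given above and the tendon markers were higher where Igfbp4, Igfbp6 and Igfbp7 were. All 6 tendon markers rose, Thbs4 and Fmod among them, with sums of 549.9 to 1068 normalized CPM in controls and 3084 to 3950 in mutant mice. Control 4, the highest control for Igfbp4, Igfbp5, Igfbp6 and Igfbp7, was also the control with the highest fibroblast sum, at 4020. Within a genotype the order was otherwise mixed. Control 1 had the highest tendon sum of the controls (1068) with the lowest Igfbp4, Igfbp6 and Igfbp7. Mutant mouse 4 had the lowest fibroblast sum of the mutant mice (5632). Among them it had the lowest Igfbp4 (93.5) and Igfbp6 (91.6) but the highest Igfbp7. Of 10 smooth muscle and pericyte markers, 8 fell, Rgs5 and Abcc9 among them, and 1 rose, with sums of 2072 to 2258 in controls and 1478 to 1719 in mutant mice. Under library size alone, 5 of these markers fell and 2 rose. The part of these cells in the binding protein differences was not tested.

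**Figure D2:**
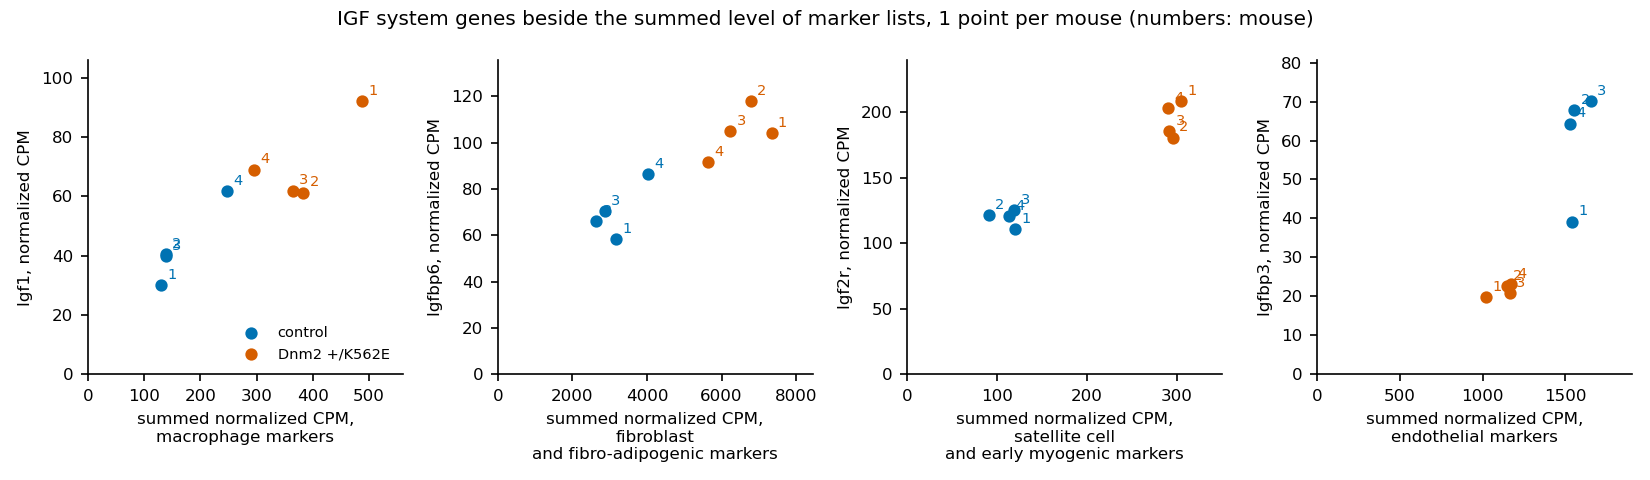
Each panel sets the normalized CPM of 1 IGF gene (vertical axis) against the summed normalized CPM of a marker list (horizontal axis), with 1 numbered point per mouse, blue for control and orange for Dnm2 +/K562E. Genes and sums separate the genotypes together, except that the Igf1 level of control 4 (61.7) lies among those of the mutant mice. Each gene is paired with a list that differs in the same direction. Lists were chosen with earlier results known, so the joint separation is no test of a link.

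Igf2bp2 (ENSMUSG00000033581, minus strand of chromosome 16, 22059009 to 22163299), whose RNA-binding product is known from proliferating myoblasts, rose most of the 10 genes. It was at 2.14, 2.55, 3.09 and 5.09 normalized CPM in controls and at 8.20, 7.04, 7.75 and 9.49 in Dnm2 +/K562E mice. Control 4 was well above the other controls, and every mutant mouse was above it. The mean rose from 3.22 ± 1.31 to 8.12 ± 1.03 (SD, n = 4), which gave a log2 difference of 1.33 (SE 0.23, 95% interval 0.81 to 1.85, edgeR adjusted p = 9.87e-04), and it was 1.63 without control 4. The relatives Igf2bp1 and Igf2bp3, genes of fetal tissue, were at or under 0.149 normalized CPM in every mouse and were not tested.

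Of 10 markers of satellite cells and early myogenic cells, 3 rose and 3 fell, and their sums were 91.0 to 120.4 normalized CPM in controls and 290.2 to 305 in mutant mice. Igf2bp2 and Igf2r separated the genotypes as this sum did, but so did the fibroblast, tendon and macrophage sums. Chodl and Ncam1 were among those that rose, with log2 fold changes of 1.82 and 1.74. The other risen marker was Myog, a factor of differentiating myoblasts (3.10), whereas the quiescence markers Pax7 (-2.03) and Calcr (-3.47) fell together with Myf5 (-1.85); these 4 were named after their values were seen. Under library size alone, 6 of the 10 markers of satellite and early myogenic cells rose and 3 fell. The part of these cells in the Igf2r and Igf2bp2 differences was not tested. Schwann cell markers (1 of 10 rose and 1 fell, median -0.05) and the 6 adipocyte markers (none passed the edgeR test, 1 had an unadjusted p under 0.05, Fabp4 and Adipoq among the 6) had overlapping sums.

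**Figure D3:**
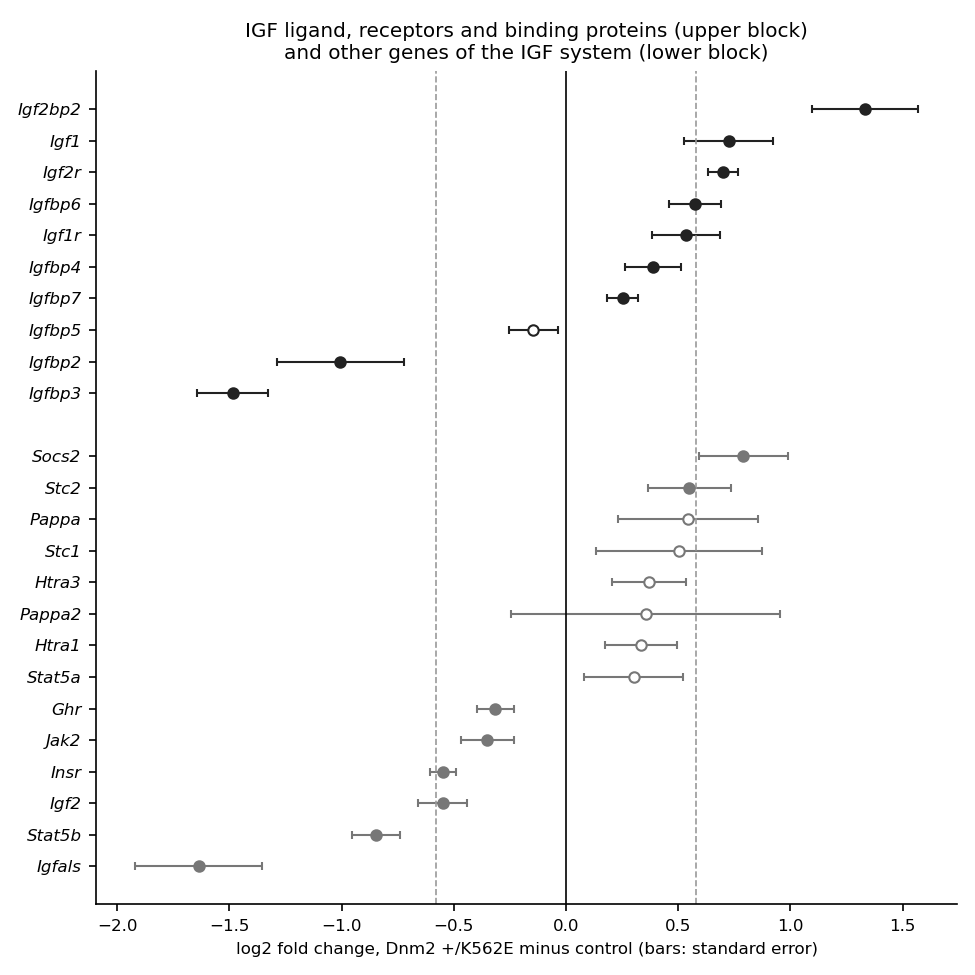
Log2 fold changes (horizontal axis, Dnm2 +/K562E minus control) with bars for the standard error, for the 10 IGF genes in the upper block and the 14 other tested genes of the IGF system in the lower block, filled where the adjusted p was under 0.05, with dashed lines at the fold threshold of 0.58. Igf2bp2 (1.33) and Igfbp3 (-1.48) are the ends of the upper block, and Socs2 (0.79) and Igfals (-1.64) those of the lower block.

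Ordered by level per kilobase of exon, Igfbp7 was highest in controls at 145.1 ± 12.9 normalized CPM per kb (SD, n = 4), followed by Igfbp6 at 63.2 ± 10.6 and Igfbp5 at 55.8 ± 10.1, which overlapped each other. Igfbp3 (19.3 ± 4.57) and Igfbp4 (18.1 ± 3.54) overlapped next, and Igf2r, Igf1 (4.34 ± 1.35) and Igfbp2 (1.56 ± 0.252) followed without overlap between neighbours. Igf1r and Igf2bp2 (0.435 ± 0.177) were lowest and overlapped. In Dnm2 +/K562E mice, the first 3 places were the same, with Igfbp7 at 172.8 ± 5.29, Igfbp6 at 94.1 ± 9.62 and Igfbp5 at 50.4 ± 2.39, now without overlap. Igfbp3, at 6.90 ± 0.501, had moved below Igfbp4 (23.7 ± 2.35), Igf2r (20.9 ± 1.44) and Igf1 (7.18 ± 1.46), although it overlapped with Igf1. Igf2bp2 (1.10 ± 0.139) now stood above Igf1r (0.780 ± 0.116) and above the mean of Igfbp2 (0.770 ± 0.335), whose animals overlapped with those of both.

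The make-up of the binding protein messages followed from these levels. The sum of Igfbp2 to Igfbp7 per kilobase was 303 ± 39.1 normalized CPM per kb in controls and 348.7 ± 11.7 in mutant mice (SD, n = 4), with overlapping animals. Igfbp3 made 4.85%, 7.34%, 7.33% and 5.82% of that sum in controls and 1.81%, 1.98%, 1.95% and 2.18% in mutant mice. Igfbp6 made 20.8% ± 0.854 in controls and 27.0% ± 2.06 in mutant mice, and Igfbp5 made 18.3% ± 1.16 and 14.5% ± 0.456. For these 3 genes, and for Igfbp2 at 0.528% ± 0.153 and 0.219% ± 0.0879, no animals overlapped. The level of Igfbp5 itself overlapped between the genotypes and did not pass the test. Its share is of a sum that holds the risen genes Igfbp4, Igfbp6 and Igfbp7. Igfbp7 (48.1% ± 2.08 and 49.6% ± 2.36) and Igfbp4 (5.95% ± 0.413 and 6.78% ± 0.472) had overlapping shares.

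**Figure D4:**
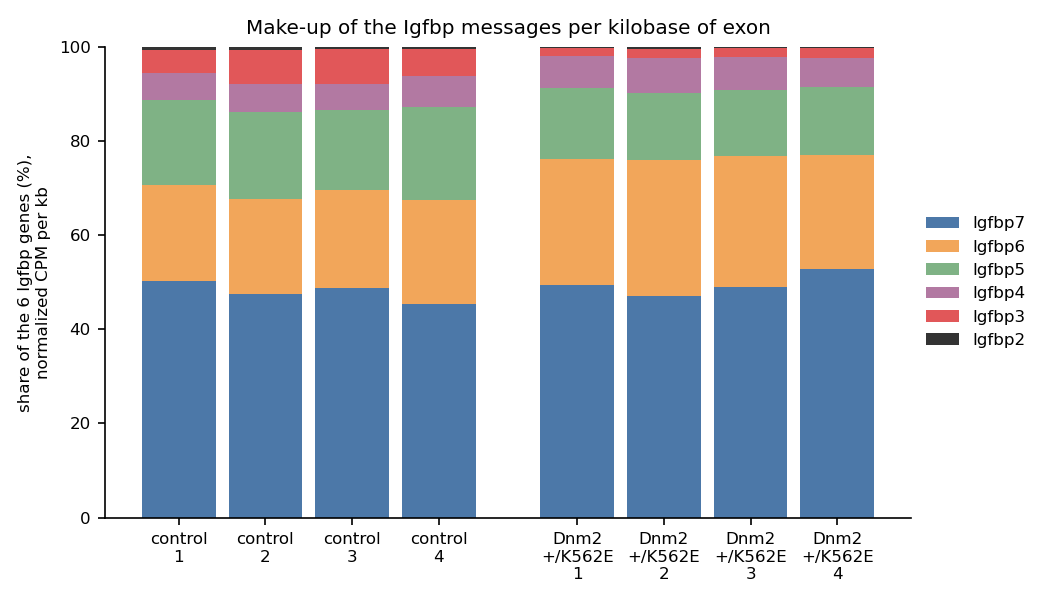
Share of each of the 6 binding protein genes in their sum (vertical axis, percent of normalized CPM per kb), with 1 stacked bar per mouse. The segment of Igfbp3 is narrower in each mutant mouse (1.81% to 2.18%) than in each control (4.85% to 7.34%), and that of Igfbp6 is wider.

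The ratios of some pairs of these genes differed between the genotypes. The ratio of Igfbp5 to Igfbp4 per kilobase was 3.08 ± 0.0725 in controls, in which both genes were highest in control 4, and 2.14 ± 0.184 in Dnm2 +/K562E mice (SD, n = 4). The ratio of Igfbp3 to Igfbp7 was 0.132 ± 0.0264 and 0.0399 ± 0.00246. Neither ratio overlapped between the genotypes. For Igfbp3 and Igfbp7 this restates the single genes, which already separated in opposite directions. How often ratios of other gene pairs separate was not computed. Igf1 per kilobase amounted to 1.41% ± 0.252 of the binding protein sum in controls and to 2.06% ± 0.421 in mutant mice, where control 4 (1.76%) overlapped with mutant mouse 2 (1.70%).

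Of 19 other genes of the IGF and growth hormone system, 14 were tested. Of these, 2 rose and 6 fell, beside 22.2% and 21.7% of all tested genes. The median log2 fold change of the 14 was 0.32. Under library size alone 4 rose and 4 fell, since Ghr and Jak2 no longer passed and Htra1 and Htra3 did. Igf2, the fetal ligand that Igf2r clears, was at 44.7, 56.0, 57.7 and 47.5 normalized CPM in controls and at 30.7, 37.7, 40.3 and 32.1 in Dnm2 +/K562E mice. All mutant mice were below all controls on this scale, and Igf2 fell with a log2 fold change of -0.55 (SE 0.11, edgeR adjusted p = 0.00211). By library size alone, Igf2 fell with -0.34 (edgeR adjusted p = 0.024). There, mutant mice 2 (1621 of 39015663 counts) and 3 (1688 of 39460486) would stand above control 1 (1501 of 36384212). The ratio of Igf2 to Igf1 per kilobase was 2.20 ± 0.586 in controls and 0.892 ± 0.252 in mutant mice (SD, n = 4), without overlap. Of the 31-base stretches of Igf2, 63.1% also occur in other annotated genes, mostly in a readthrough model that was not counted here.

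Igfals encodes the acid-labile subunit, which joins IGF and IGFBP3 in the long-lived complex of the blood. Like Igfbp3 it fell, from 3.01, 4.45, 4.41 and 6.42 normalized CPM in controls to 1.49, 1.70, 0.835 and 1.86 in mutant mice, with no overlap (log2 fold change -1.64, SE 0.28, edgeR adjusted p = 8.74e-04). The insulin receptor gene Insr fell from 120.02 ± 3.84 to 82.1 ± 3.65 (SD, n = 4), with a log2 fold change of -0.55 and without overlap. Insrr, the insulin receptor-related gene, and Igfbpl1 were too low to be tested.

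Among growth hormone signalling genes, Stat5b, which carries the signal to the Igf1 gene, fell from 100.3 ± 17.2 to 55.7 ± 3.42 normalized CPM (SD, n = 4, log2 fold change -0.85, edgeR adjusted p = 1.13e-04). The receptor gene Ghr (-0.32, edgeR adjusted p = 0.00943) and Jak2 (-0.35, 0.0315) fell less, and under library size alone they were at -0.10 and -0.14 and did not pass. Socs2, a feedback inhibitor of this pathway, rose with 0.79 (0.00788), while Stat5a, at 0.30 (0.295), did not pass. For Stat5b, 15.2% of the 31-base stretches also occur elsewhere, chiefly in Stat5a, so that reads of the pair can be confused.

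Of Pappa, Pappa2, Htra1, Htra3, Stc1 and Stc2, the genes that free IGFs from binding proteins or hold that step back, 1 passed the test. Of all tested genes, 22.2% rose and 21.7% fell. The protease genes Pappa (log2 fold change 0.54), Pappa2 (0.35), Htra1 (0.33) and Htra3 (0.37), and Stc1 (0.50), did not pass the test, with edgeR adjusted p-values between 0.0896 and 0.66. Stc2, an inhibitor of the Pappa protease, passed with 0.55 (edgeR adjusted p = 0.0331), and lost this in 6 of the 8 fits that left out 1 mouse. Under library size alone, Htra1 (edgeR adjusted p = 0.0244) and Htra3 (0.0199) passed too.

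Inside the cell, 32 genes of insulin and IGF signalling were tested, of which 3 rose (Shc1, Grb2 and Pik3r2) and 8 fell. Over all tested genes, 22.2% rose and 21.7% fell. The median log2 fold change of the 32 was -0.12, but under library size alone 9 of them rose, 1 fell and the median was 0.10. Only Foxo4, a transcription factor that AKT holds out of the nucleus, passed both thresholds, at 97.2 ± 7.50 normalized CPM in controls and 62.8 ± 5.81 in mutant mice (SD, n = 4, log2 fold change -0.63, edgeR adjusted p = 1.41e-04). Messenger levels of these genes do not measure the activity of the pathway.

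**Figure D5:**
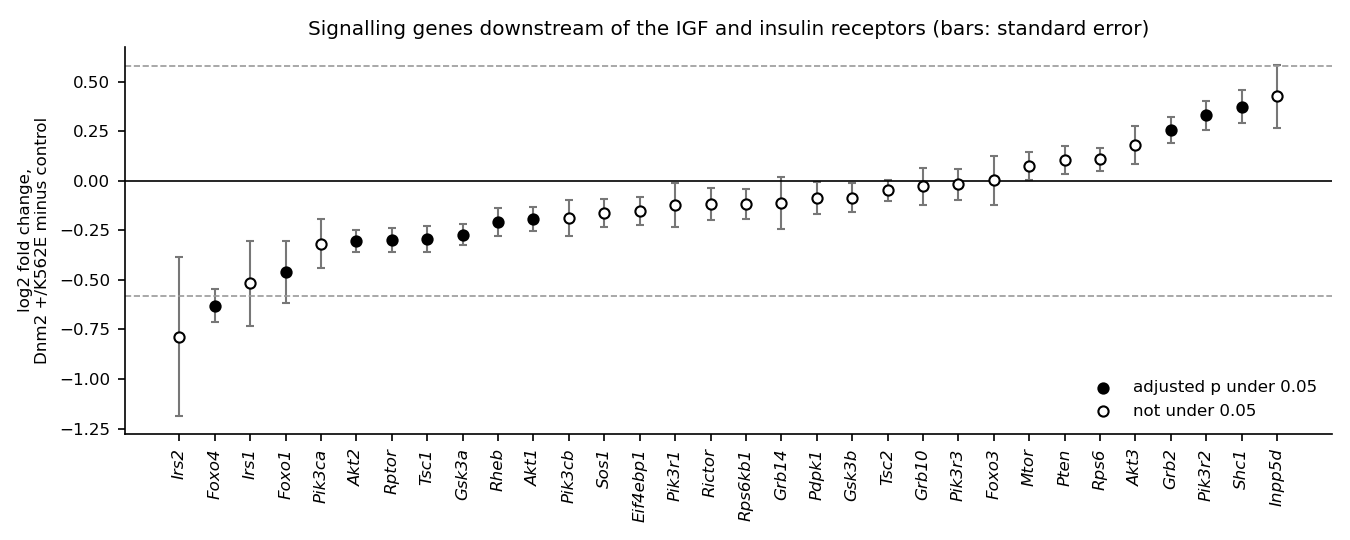
Log2 fold changes (vertical axis, Dnm2 +/K562E minus control) of the 32 signalling genes, ordered by size, with bars for the standard error, filled where the adjusted p was under 0.05, and dashed lines at 0.58 in either direction. Most genes lie between the dashed lines, and Foxo4 (-0.63) is the 1 filled point outside them.

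For each IGF gene, the 2 tested genes with the most similar pattern were found by Pearson's r of log2 CPM over the 8 mice, which fall into the 2 genotypes, so that any gene that differs strongly between these scores highly. For Igf1 these were Cmklr1 (r = 0.993), a receptor of macrophages, and Kdelr2 (0.989), and for Igf1r Smim24 and Sft2d2 (both 0.980). Igf2r was nearest to Etv5 (0.997) and Lgals1 (0.996), and Igfbp3 to Rbm38 (0.996) and Cavin2 (0.994), a gene of caveolae. Igf2r and Igfbp3 had 1248 and 1327 genes at r over 0.9. Igfbp6 was nearest to Tnfaip8l2 (0.992) and Surf4 (0.989), Igfbp4 to Celf2 (0.985) and Eps8 (0.979), and Igfbp2 to Efna1 (0.973) and Gpatch8 (0.972). Igf2bp2 was nearest to Ms4a14 (0.988) and Col4a5 (0.985), and it was itself the nearest gene to Igfbp7 (0.978), followed by Emp2 (0.977). Igfbp5, whose level did not separate the genotypes, had only 15 genes at r over 0.9, the nearest being Sfrp1 (0.978) and Kctd21 (0.950).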

How the data were processed

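RNA from the soleus of 8 male mice, 4 per genotype, was sequenced, and samples were grouped by the genotype in the labels. The authors trimmed reads with Trimmomatic 0.33, aligned them to GRCm38.p5 with STAR 2.5.1b and counted them per gene with featureCounts, and the deposited values are raw counts per gene and mouse. In their counting, multi-mapping reads stayed at the primary alignment and reads over several genes were counted for each. Use of strand is not given in the sources used here, and the paper's methods and the labels name different library kits. Antisense and overlapping genes therefore cannot be told apart.

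GENCODE M21, on the same build, gave symbols for 22647 of 22880 gene IDs, with positions and exon lengths. Low counts were filtered in edgeR 4.0.16 (filterByExpr with a minimum count of 10 and a minimum total of 15), which left 14001 genes. Scaling by TMM (factors 0.91 to 1.10), the quasi-likelihood F-test and Benjamini-Hochberg adjustment over these genes were computed in R 4.3.3. Thresholds were an adjusted p of 0.05 and a log2 fold change of 0.58, with 2 as the prior count of log2 CPM. The fit was tested on simulated data. Intervals of a fold change cover 95%, and the limit for a count of 0 is 3 counts.

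The IGF genes and all lists were chosen with earlier results of these data known. Genes named beside them were all 19 other IGF system genes, signalling genes past both thresholds, the 2 markers of each list with the highest mean normalized CPM over all mice, not corrected for length (those of the Schwann cell list are not reported here), and the 2 genes most correlated with each IGF gene. Reads by allele and protein sequences were not analysed here. The comparison was repeated with DESeq2 1.42.0, edgeR's exact test, scaling by median ratios or by library size alone, other filters on low counts, no fold threshold, a replicate block and leaving out each mouse.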

Additional observations from a re-analysis of the deposited data

Results flagged for a closer look

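In each group of 4 mice, the highest and the lowest value were compared with the others by Dixon's test. Of 72 groups tested, over the IGF genes, the other IGF system genes and the summed markers, 5 held a value far from the rest, and chance gives about 1 in 20. None of these was a level of the 10 IGF genes. Stc2 was at 5.75 normalized CPM in control 1 and at 3.27 to 3.59 in the other controls. Stat5a was at 28.4 in the same mouse and at 12.4 to 14.5 in the others. The summed macrophage markers were at 248 in control 4, the mouse with the most Igf1 among controls, and at 130.3 to 138.8 in the others. The summed Schwann cell markers were at 280.5 in control 1, against 314.3 to 315.5, and at 271.8 in Dnm2 +/K562E mouse 2, against 319.2 to 328.2.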

How the results depend on the processing

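The 2 IGF genes called lower, Igfbp2 and Igfbp3, were called under all 17 alternatives. The number called higher was 3, 6 with library size alone (Igf1r, Igfbp4 and Igfbp6 added), 7 with no fold threshold, 4 with at least 10 counts in every mouse (Igfbp6 added), and 3 to 5 when 1 mouse was left out, the 5 without Dnm2 +/K562E mouse 4. Without Dnm2 +/K562E mouse 1 the 3 were Igf1r, Igf2r and Igf2bp2, Igf1 falling below the fold threshold at 0.576. The log2 fold change of Igfbp5 turned from -0.15 to 0.0638 with library size alone, by the shift of all genes that this scaling makes, and passed the test in neither. Igfbp4 lost its adjusted p without controls 2 or 3 or without Dnm2 +/K562E mice 1, 2 or 3. Titles and descriptions give mice of both genotypes the same numbers, but these are different animals. The correlation of their deviations ran from -0.21 to 0.01 by titles and from -0.17 to 0.18 by descriptions. With either replicate block 4 genes were called higher (Igfbp6 added) and 2 lower. Igfbp2 rests on sparse counts, 33 to 118 per mouse, and on animals that spread widely, with -1.34 without Dnm2 +/K562E mouse 2.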
